A study of Mus musculus with 157 samples.

Results

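The data presented here are for 9 tubulin genes, 4 of the alpha kind (Tuba1a, Tuba1b, Tuba1c and Tuba4a), 4 of the beta kind (Tubb2a, Tubb4b, Tubb5 and Tubb6) and the gamma-tubulin gene Tubg1, in ribosome-bound mRNA of mouse B cells. Members were taken by gene symbol from the 19600 genes of the deposited count table, and all 9 passed the expression filter of every test. B cells from the spleens of C57BL/6Babr mice were grown in lipopolysaccharide (LPS, a bacterial mitogen, 10 µg/ml) for 48 h and either left as they were (LPS) or exposed for 4 h to etoposide at 20 µM (LPS+ET). Etoposide is a topoisomerase II poison whose trapped complexes become double-strand breaks in DNA. The LPS+ET+KU group had 47 h of LPS, then KU55933, an inhibitor of the DNA damage kinase ATM, at 10 µM for 1 h, and then etoposide for 4 h. All 3 groups thus shared LPS activation, and all were given cycloheximide at 100 µg/ml for 3 min, which holds ribosomes in place on mRNA, before extracts were run on sucrose gradients.

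Each treatment had 4 gradients, named here by a code in the column names (LUL15, LUL16, LUL17 or LUL18). The code is called the pool below, and the labels do not say what it stands for. From each gradient 13 fractions were read by 3′ end RNA-seq. Monosomes were in fractions 4 to 7. Light polysomes, with few ribosomes per mRNA, were in 8 to 10 and heavy polysomes in 11 to 16. The method counts 1 tag at the 3′ end of each transcript, so counts of different genes can be compared without a correction for length. Single libraries held 14724 to 4170688 counts (median 811932), 12 of them under 100000, and whole gradients 6404957 to 21449781 counts. The LPS+ET gradient of pool LUL16 stood apart, with 30.4% of its counts in heavy polysomes against 60.5% to 68.2% in the other LPS+ET gradients, and results are given without this pool where that matters. The summed level of 8 B-cell markers was 39668 to 140163 CPM (counts scaled to a common library total) per gradient. It was 0.917 to 8.08 CPM for the 5 T-cell markers found of 7, 29.8 to 160.0 CPM for the 6 myeloid markers found of 7, and at most 0.224 CPM for the 1 erythroid marker found of 5.

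Microtubules are hollow polymers of alpha- and beta-tubulin pairs, while gamma-tubulin sits in ring complexes that start new microtubules at centrosomes and spindles. Mammals have several alpha and beta genes, called isotypes, whose products mix in the same polymer and differ mostly in their tails and tissue range. The mRNAs of alpha- and beta-tubulin are under a feedback control that acts on the ribosome: when free tubulin is in excess, TTC5 recognises the first residues of the nascent chain and the mRNA is degraded while it is translated. For that reason the first codons of the members are shown here.

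The first 30 coding bases are printed from the ATG, with the first 4 codons, which spell the stretch read by TTC5 in alpha- and beta-tubulin, in capitals (GRCm38, GENCODE release M21, longest complete coding transcript of each gene). Tubb6 is not printed.
Tuba1a: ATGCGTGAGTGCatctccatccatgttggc
Tuba1b: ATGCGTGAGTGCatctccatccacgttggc
Tuba1c: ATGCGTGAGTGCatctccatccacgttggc
Tuba4a: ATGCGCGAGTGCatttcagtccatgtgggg
Tubb2a: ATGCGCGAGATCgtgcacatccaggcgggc
Tubb4b: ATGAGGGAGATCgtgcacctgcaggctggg
Tubb5: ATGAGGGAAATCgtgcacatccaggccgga
Tubg1: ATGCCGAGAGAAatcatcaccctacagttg
Over the 12 capital bases, the alpha members differed from each other at 0 to 1 position and the 3 beta members at 1 to 3. Tubg1, which is not part of the alpha-beta pair, differed from the 7 others printed at 7 or 8. Tuba1b and Tuba1c were identical over all 30 bases.

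The tags of each gene came from its 3′ end. Tuba1a (ENSMUSG00000072235), Tuba1b (ENSMUSG00000023004) and Tuba1c (ENSMUSG00000043091) lie close together on chromosome 15, at 98949840 to 98953550 and 98931424 to 98934564 on the minus strand and 99029890 to 99038104 on the plus strand (GRCm38). Tubb5 (ENSMUSG00000001525, chromosome 17, 35833925 to 35838305, minus strand) was the only member counted at more than 1 poly(A) site. Its site at 35834804 carried 78.2% of its counts and that at 35833975 the remaining 21.8%, and both lie in untranslated exon sequence as annotated. The main site lies 883 bases from the nearest end of an annotated coding transcript, and the other 54 bases. The other members lie on chromosome 1 (Tuba4a, 75214973 to 75219252, minus strand), 13 (Tubb2a, 34074300 to 34078007, minus), 2 (Tubb4b, 25222159 to 25224701, minus), 18 (Tubb6, 67390716 to 67402747, plus) and 11 (Tubg1, 101119937 to 101126418, plus). Their counted sites, with that of Tuba1c, lie in untranslated exon sequence, apart from those of Tuba1a, Tuba1b and Tubb4b, which lie 1 to 13 bases past the end of an annotated coding transcript. Of the 25-base words in the 60 bases ahead of the counted sites, 8 of 36 of Tuba1b also occurred in another gene, AC132481.2. None did for the other members, so Tuba1b is the member whose tags this search marks as uncertain. The search covered other genes only, and copies elsewhere in the genome were not looked for.

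Tubb5 was the main tubulin mRNA on ribosomes of LPS-activated B cells by a wide margin. Its level in the 4 LPS gradients was 3630.4, 5060.4, 2437 and 2925 CPM for LUL15, LUL16, LUL17 and LUL18, in which order all values per gradient are given below. Its mean of 3513 ± 1142 CPM (SD, n = 4) ranked 21 among all 19600 genes. Tuba1c, the alpha member with the highest counts, followed with 529.8, 615, 496 and 440.2 CPM, and Tubg1 with 279, 296, 183 and 193 CPM. The 4 gradients of these 3 genes did not overlap each other in LPS.

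The remaining members were low. Tubb2b, a beta gene outside the 9 members, had 39.9 ± 4.65 CPM in LPS and is not in this order. Tubb4b, a widely expressed beta isotype, had 101 ± 21.02 CPM and Tuba4a 81.3 ± 28.7 CPM, with ranges that overlapped. Tuba1a, best known from neurons, had 39.3 ± 6.87 CPM, Tuba1b 34.2 ± 24.7 CPM and Tubb2a 14.1 ± 1.40 CPM, and each overlapped its neighbour in this order. Tubb6 was lowest with 6.05 ± 0.784 CPM, from 50 to 137 counts per gradient, and did not overlap Tubb2a. Tuba1b was near 0 in pool LUL17 in every treatment (6 to 9 counts), against 10.2 to 54.0 CPM in the gradients of the other pools.

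As a share of the counts of the 4 beta members, Tubb5 made up 96.5% ± 0.659 for LPS, 90.7% ± 5.30 for LPS+ET and 95.5% ± 2.504 for LPS+ET+KU. Tubb6 made up 0.174% ± 0.0320, 4.03% ± 2.58 and 1.63% ± 1.12. Among the alpha members, Tuba1c held 77.4% ± 4.25, 75.9% ± 7.66 and 59.7% ± 6.93 in the same order. The uncertain tags of Tuba1b, near 0 in LUL17, enter these alpha shares and the alpha sum. The summed level of the 4 alpha members was 675 ± 113 CPM in LPS, 454 ± 103.9 CPM with etoposide and 242 ± 50.1 CPM in LPS+ET+KU, while that of the 4 beta members was 3635 ± 1159, 3980.5 ± 2813 and 3339.9 ± 2082 CPM, treatments in the same order. The beta sum varied more between pools than between treatments, as did Tubb5, which was highest in LUL16 and lowest in LUL17 in each treatment.

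**Figure D1:**
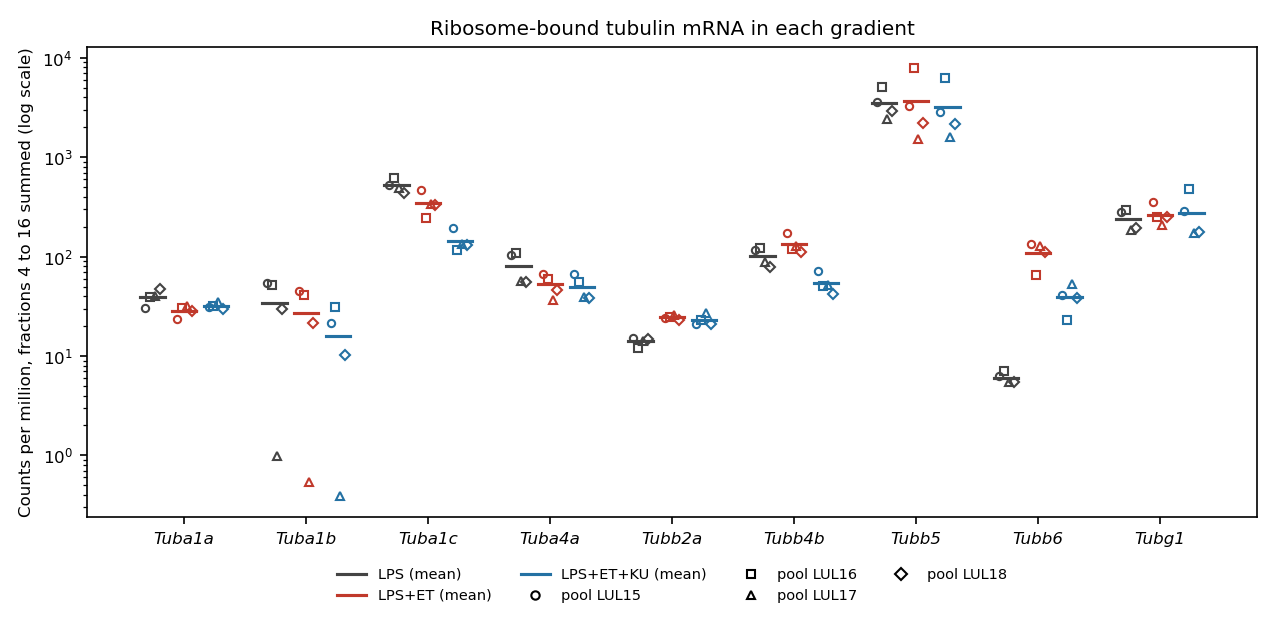
Level of each tubulin gene in ribosome-associated mRNA, as CPM on a log axis, with 1 point per gradient (4 per treatment) and a bar at the mean. Tubb5 lies between 1521 and 7839 CPM in all gradients, Tubb6 lies at 5.42 to 7.05 CPM in LPS and 64.9 to 134 CPM in LPS+ET, and Tuba1b has 1 point near 0 in each treatment.

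The comparison of LPS+ET with LPS asked how the level of tubulin mRNA on ribosomes differs after DNA damage. Tubb6 rose 16.5-fold and Tubb2a 1.61-fold, and edgeR called no member lower, though with the pool as a block it called Tuba1a, Tuba1c and Tuba4a lower. These are bulk extracts, in which fewer cells of a type and less RNA per cell cannot be told apart. Total mRNA was not measured in these libraries. A change in total mRNA and a change in its association with ribosomes therefore cannot be told apart from them alone. The study measured total mRNA of these treatments in separate mRNAseq libraries, which were not used here. In the edgeR fit of counts summed over fractions 4 to 16, 2 of 9 members were called at an adjusted p under 0.01, both higher. The background was 12.7% of 12755 genes in either direction and 7.88% higher.

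Tubb6, a beta isotype of broad tissue range that is usually scarce, had 6.30, 7.05, 5.42 and 5.43 CPM in LPS and 134, 64.9, 127 and 111 CPM in LPS+ET. The lowest LPS+ET gradient, LUL16, was still far above the highest LPS gradient. The log2 fold change was 4.05 ± 0.30 (SE, 16.5-fold, edgeR adjusted p = 1.41e-06), and it was called in all 20 alternative analyses (3.22 to 4.32).

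Tubb2a, a beta isotype abundant in brain, had 15.1, 12.1, 14.1 and 15.0 CPM in LPS and 24.2, 24.8, 25.7 and 23.2 CPM in LPS+ET. The groups did not overlap, and the log2 fold change was 0.69 ± 0.16 (edgeR adjusted p = 0.00615). The call was lost when any LPS or LPS+ET gradient, or LPS+ET+KU of LUL18, was left out (adjusted p up to 0.0260 over the 12 omissions), and also without pool LUL16 (0.0234) or LUL17 (0.0321) or without the low-count filter (0.0222), so that 8 of 20 alternatives made it, at log2 changes of 0.62 to 0.73 over all alternatives. Tubb2a and Tubb6 were the members whose 4 LPS+ET gradients all lay above or all below the 4 LPS gradients. Over all genes tested, 26.4% were separated in this way, 17.3% with LPS+ET higher.

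Tuba1c had 471, 244, 342 and 329 CPM in LPS+ET, lower than LPS in each pool, but its LUL15 value lay within the LPS range. Its log2 change of -0.71 ± 0.20 did not pass (edgeR adjusted p = 0.0214), nor did those of Tuba1a (-0.58 ± 0.19, 0.0394) and Tuba4a (-0.75 ± 0.26, 0.0559). With the pool as a block, these 3 alpha members were called lower, with adjusted p = 0.00335 for Tuba1c, 0.00279 for Tuba1a and 0.000693 for Tuba4a. Together with Tubb2a and Tubb6 this made 5 of 9 members, against 25.9% of all genes in that fit. Tuba1b (-0.49 ± 1.101), Tubb4b (0.27 ± 0.19), Tubb5 (-0.03 ± 0.50) and Tubg1 (0.03 ± 0.30) passed in neither fit.

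The second comparison, LPS+ET+KU against LPS+ET, asked which of these values differ when KU55933 is given before etoposide. No group had KU55933 without etoposide, so the part of ATM in the damage response and other effects of KU55933 cannot be told apart. Tuba1c and Tubb4b were 2.40- and 2.46-fold lower with KU55933, in a comparison that called few genes at all. The edgeR fit called 2 of 9 members, both lower. The background was 0.455% of all genes, 58 of 12755, and 0.235% lower.

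Tuba1c went from 471, 244, 342 and 329 CPM to 195, 117, 134 and 132 CPM, a log2 change of -1.26 ± 0.20 (edgeR adjusted p = 0.00737). All LPS+ET+KU gradients lay below all LPS+ET gradients. Tubb4b went from 174, 119, 127 and 112 CPM to 72.0, 50.4, 52.2 and 41.9 CPM, a log2 change of -1.30 ± 0.19 (edgeR adjusted p = 0.00521), again without overlap. Neither call held in the limma analysis that gave every fraction equal weight, in the fit of the 8 compared gradients alone, or without pool LUL17. With equal weight the log2 changes were -1.04 for Tuba1c and -0.90 for Tubb4b. A summed level also depends on the share of counts that each class holds. Monosomes held 28.4% to 34.03% of counts in LPS+ET+KU, against 10.8% to 13.0% in LPS+ET (28.996% in LUL16). The part of this in these calls was not tested. When 1 gradient was left out, the Tuba1c call was lost in 11 of 12 omissions, all but LPS+ET of LUL16 (adjusted p up to 0.0388). That of Tubb4b was lost in 6: LPS of LUL15, LPS+ET of LUL15, LUL17 or LUL18, and LPS+ET+KU of LUL17 or LUL18 (up to 0.0277). Over all 20 alternatives the log2 change was -1.38 to -1.04 for Tuba1c (adjusted p 5.60e-07 to 0.104) and -1.40 to -0.90 for Tubb4b (6.43e-08 to 0.104).

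Tubb6 had 41.3, 23.3, 53.6 and 38.2 CPM in LPS+ET+KU, below each LPS+ET gradient. Its log2 change of -1.48 ± 0.26 did not pass (edgeR adjusted p = 0.0138). With the pool as a block it was called (0.000553), as were Tuba1c (0.000517), Tubb4b (7.83e-05) and Tuba1b (0.00574), which made 4 of 9 members against 6.1% of all genes. Without pool LUL16 the fit called 3 members, Tubb6, Tuba1c and Tubb4b, against 2.14% of all genes. Tuba1c, Tubb4b and Tubb6 were also the 3 members whose gradients did not overlap between these treatments, all lower, where 4.19% of genes tested were lower in this way and 8.26% were separated in either direction. The other members had log2 changes of -0.22 to 0.16 and were not called, apart from Tuba1b in the blocked fit (-0.76 ± 1.11 without the block).

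Against LPS, cells given both etoposide and KU55933 had 3 members called, where the background was 10.7% of all genes. Tubb6 was higher (log2 2.57 ± 0.28, edgeR adjusted p = 5.51e-05). Tuba1c was lower (-1.98 ± 0.21, 4.46e-05), as was Tubb4b, at 117, 121, 88.9 and 78.0 CPM in LPS (-1.03 ± 0.19, 0.00234). The Tubb4b call was lost without LPS+ET+KU of LUL18 (adjusted p = 0.01002), without pool LUL17 and with equal weight per fraction, while Tubb6 and Tuba1c were called in all 20 alternatives. Tubb2a, at 21.1, 23.1, 27.4 and 21.04 CPM, did not overlap LPS either, but its log2 change of 0.61 ± 0.16 did not pass (adjusted p = 0.0133). In all, 4 of 9 members were separated, against 26.3% of genes. The pool block called 6 members (background 26.8%), adding Tubb2a, Tuba4a (-0.81 ± 0.14, adjusted p = 0.000374) and Tuba1b (-1.33 ± 0.16, 3.17e-05). This comparison shares its LPS gradients with the first and its LPS+ET+KU gradients with the second, so the 3 sets of values are not independent.

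**Figure D2:**
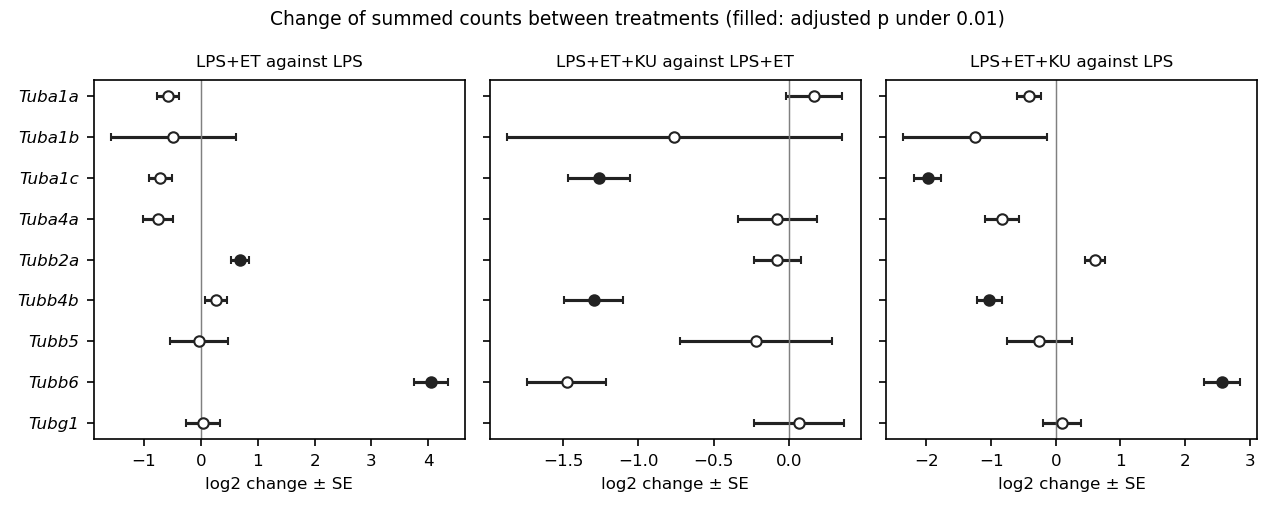
Log2 fold change of each tubulin gene in ribosome-associated mRNA, with bars of 1 SE from edgeR, for the 3 comparisons; filled points passed an adjusted p of 0.01. Tubb6 stands far to the right in both comparisons with LPS, and Tuba1c and Tubb4b lie left of 0 in both comparisons of LPS+ET+KU.

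When each class of the gradient was tested by itself, Tubb6 was called higher in LPS+ET than in LPS in all 3 classes. In monosomes it went from 3.67 ± 1.34 to 43.1 ± 4.46 CPM (log2 3.58 ± 0.36), in light polysomes from 4.01 ± 1.02 to 68.1 ± 9.69 CPM (3.95 ± 0.35) and in heavy polysomes from 7.72 ± 1.85 to 143 ± 36.2 CPM (4.11 ± 0.29). Tuba1c was called lower in monosomes (315 ± 60.1 to 165 ± 15.4 CPM, log2 -0.86 ± 0.17, edgeR adjusted p = 0.0027) and light polysomes (-0.87 ± 0.21, 0.00988). In heavy polysomes its log2 change of -0.61 ± 0.23 did not pass (0.0781). Members called were thus 2 in monosomes, 2 in light and 1 in heavy polysomes, with backgrounds of 9.52%, 10.6% and 9.69%. The light polysome call of Tuba1c was lost in 10 of 12 omissions of 1 gradient. With the pool block, 4 members passed in monosomes (background 24.4%), among them Tubb5, higher by 0.61 ± 0.14 on the log2 scale, and 3 in heavy polysomes (20.4%), and Tuba4a was added in light polysomes (-0.79 ± 0.16, adjusted p = 0.000931).

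In LPS+ET+KU against LPS+ET the calls came from heavy polysomes. There Tuba1c went from 470.3 ± 106 to 162 ± 48.6 CPM, Tubb4b from 205 ± 64.6 to 71.1 ± 19.7 CPM and Tubb6 from 143 ± 36.2 to 50.6 ± 13.4 CPM. Their log2 changes were -1.64 ± 0.23 (edgeR adjusted p = 0.00351), -1.63 ± 0.28 (0.00783) and -1.59 ± 0.26 (0.00659), or 3.11-, 3.10- and 3.01-fold lower. These were 3 of 9 members, against 0.572% of all genes in either direction and 0.317% lower. Leaving out LPS+ET of LUL15, LUL17 or LUL18, or LPS+ET+KU of LUL17 or LUL18, left 0 members called, and over the 12 omissions the calls of Tuba1c, Tubb4b and Tubb6 were lost in 5, 11 and 10 (adjusted p up to 0.0188, 0.0369 and 0.0296). The pool block called 4 (background 3.05%), adding Tuba1b (-1.23 ± 0.21, adjusted p = 0.00187).

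In monosomes and light polysomes edgeR called 0 members, with backgrounds of 0.213% and 0.292%. At an unadjusted p under 0.05 there were 4 and 3 members, beside 1204 of 8932 and 1515 of 9922 genes. DESeq2 also called 0 in both classes, and the pool block called 2 in each (backgrounds 5.33% and 5.12%). In monosomes Tuba1c had 165 ± 15.4 CPM with etoposide alone and 134 ± 23.6 CPM with the inhibitor added, a log2 difference of -0.39 ± 0.17, and Tubb4b differed by -0.61 ± 0.25.

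Equal concentrations of RNA from each fraction went into the libraries, so a fraction's total does not say how much mRNA it held. Each fraction was therefore scaled to CPM before a gene's spread over the gradient was taken, and a heavy polysome share is a gene's position relative to the other mRNAs. Over 8000 genes with enough counts, the median heavy share was 55.2%, 53.9% and 54.7% in LPS, LPS+ET and LPS+ET+KU. For the 978 genes with coding regions of 1200 to 1500 bases, the range of the tubulins, it was 56.9%, 55.2% and 55.8%.

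In LPS 7 of 9 tubulin mRNAs peaked in fraction 14, deep in heavy polysomes, Tubg1 in fraction 13 and Tubb6 in fraction 4. Tubb4b was the most polysomal, with 73.8%, 72.9%, 75.8% and 76.6% of its profile in heavy polysomes, above 91.0% of all genes. Tuba1c (67.2% ± 0.823), Tubg1 (65.3% ± 2.21), Tuba1a (61.6% ± 4.02), Tuba1b (59.97% ± 2.57), Tubb2a (58.2% ± 5.98), Tubb5 (57.3% ± 3.72) and Tuba4a (56.7% ± 1.86) followed. Tubb6 was poorly measured in LPS: its heavy shares were 46.6%, 70.1%, 70.4% and 17.5%, and on counts as deposited its heavy share was 66.0% to 75.9%. Measured against monosomes in the same gradient and relative to the average gene, Tubg1 (log2 1.17 ± 0.13), Tubb4b (1.00 ± 0.18), Tuba1a (0.67 ± 0.19) and Tuba1c (0.49 ± 0.13) were called heavier in LPS. Without LPS of LUL16 or LUL18 neither Tuba1a (adjusted p = 0.0177 and 0.0242) nor Tuba1c (0.0165 and 0.0105) was called, and Tuba1c was not called without LPS of LUL15 (0.0168) or LUL17 (0.0104). This was 4 of 9 members, against 49.1% of all genes called in either direction.

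**Figure D3:**
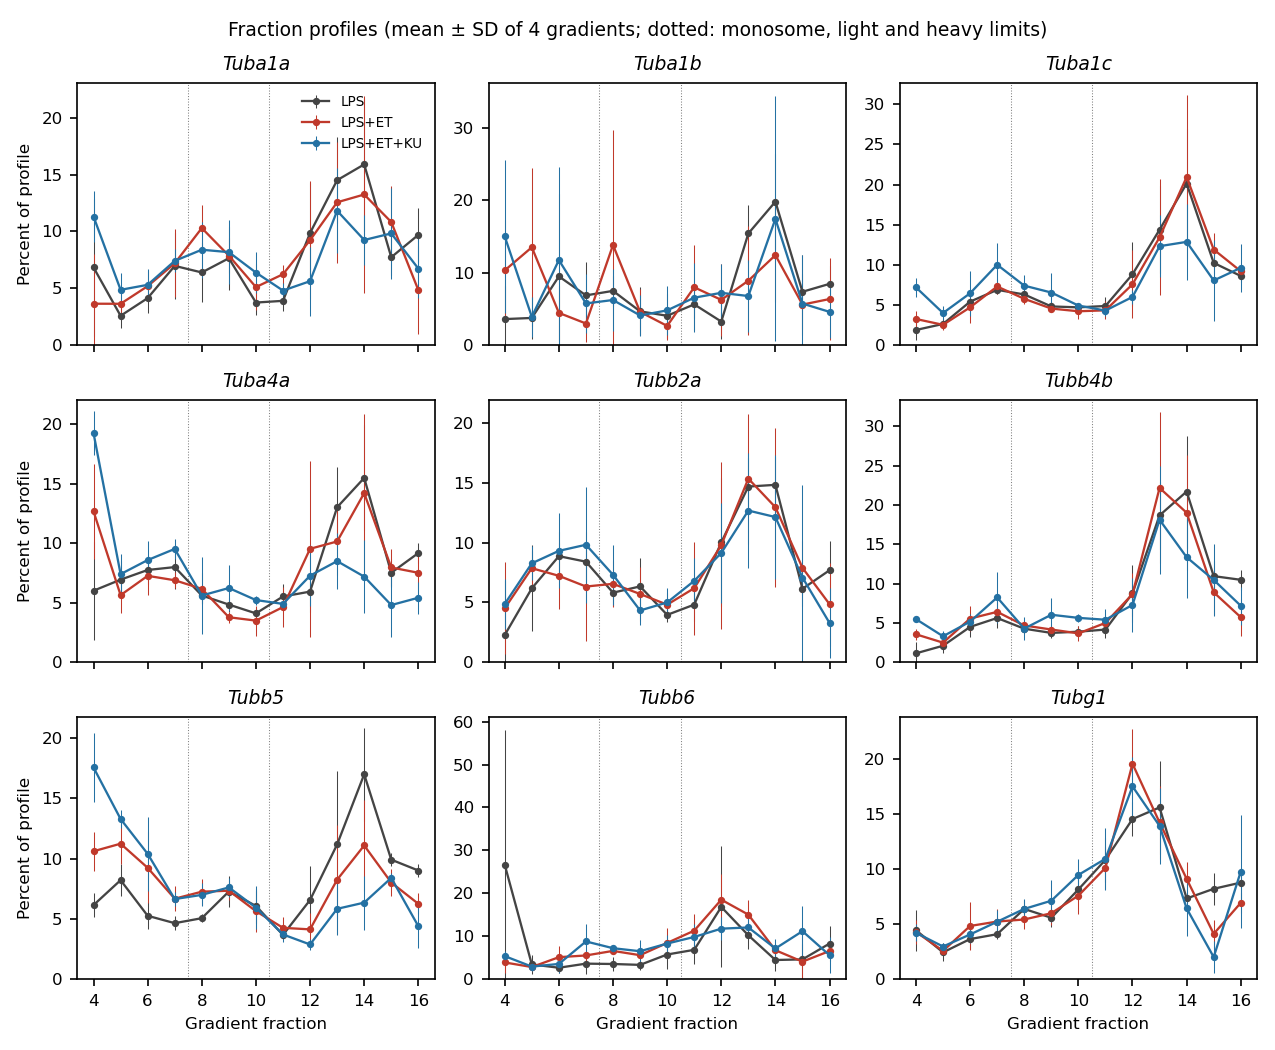
Profile of each tubulin gene along the gradient: fraction number (4 to 16) against the mean percentage of the gene's scaled counts, with bars of 1 SD over 4 gradients, for the 3 treatments. Tubb5 peaks in fraction 14 (LPS), fraction 5 (LPS+ET) and fraction 4 (LPS+ET+KU), while Tubg1 stays in fractions 12 and 13.

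After etoposide the heavy polysome shares of Tubb5, Tuba1b and Tubb4b lay below those of LPS in every gradient. That of Tubb5 was 59.4%, 61.4%, 55.4% and 53.2% in LPS and 50.7%, 40.3%, 35.998% and 40.9% in LPS+ET, without overlap. Its monosome share was 24.3% ± 1.58 in LPS and 37.8% ± 4.84 in LPS+ET. The peak of its profile was in fraction 14 in LPS (17.0% ± 3.86) and in fraction 5, among the monosomes, in LPS+ET (11.2% ± 1.69). Among all genes its heavy share went from percentile 54.8 to percentile 25.3.

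The heavy-to-monosome ratio was tested for a change in edgeR, with a term for each gradient. Tubb5 had a log2 change of -1.11 ± 0.22 (2.16-fold lower, edgeR adjusted p = 0.000729) and was the only member called, against 4.64% of all genes. The call held with any 1 gradient or pool LUL16 left out. It was lost when the gradient term was dropped (adjusted p = 0.635), in a fit that called 19 of 11034 genes. The summed level of Tubb5 did not pass in the same comparison (-0.03 ± 0.50). Of the other 2 members, Tubb4b had 70.9%, 69.0%, 65.9% and 72.2%, and Tuba1b 54.9%, 48.7%, 33.045% and 53.7%, the LUL17 value from 7 counts. These were 3 of 9 members separated in heavy share, where 13.5% of all genes were.

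With ATM inhibited, the heavy polysome shares of 4 members lay below those with etoposide alone in every gradient. Tubb5 went to 35.6%, 32.9%, 26.4% and 31.3%, below each LPS+ET gradient, and its profile peaked in fraction 4 (17.6% ± 2.86). It stood at percentile 12.4 of all genes. Tuba4a went from 52.7%, 54.8%, 54.4% and 54.2% to 30.8%, 37.4%, 38.9% and 45.4%, and its peak went from fraction 14 to fraction 4. Tuba1c went from 71.7%, 61.8%, 67.1% and 69.5% to 56.1%, 47.0%, 53.8% and 56.2%.

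Tubb4b went to 58.8%, 65.5%, 58.4% and 64.7%. These 4 members were all lower without overlap, where 1.79% of all genes were lower in this way and 5.34% separated in either direction. Tubg1 (64.1% ± 5.01 to 60.6% ± 5.44), Tubb6 (62.1% ± 6.39 to 57.5% ± 6.09), Tuba1a (57.0% ± 5.53 to 48.1% ± 4.96), Tubb2a (57.0% ± 8.17 to 51.1% ± 10.48) and Tuba1b (47.6% ± 10.0 to 48.4% ± 14.5) overlapped.

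In the change of the heavy-to-monosome ratio, Tuba1c (log2 -1.31 ± 0.19, edgeR adjusted p = 0.000141) and Tuba4a (-1.09 ± 0.20, 0.00421) fell. They were 2 of 9 members, against 0.164% of all genes, 19 of 11611. The Tuba1c call held in each of the 12 omissions of a gradient and without pool LUL16. Neither call held when the gradient term was dropped (adjusted p = 0.104 for Tuba1c and 0.936 for Tuba4a), in a fit that called 0 of 11034 genes. That of Tuba4a was lost in 6 of the 12: LPS of LUL15, LPS+ET of LUL15 or LUL18, or LPS+ET+KU of LUL15, LUL16 or LUL17. All 9 members had values below 0, from -0.29 for Tubg1 to -1.31, with a median of -0.83 against -0.03 over all genes tested. Of the 9, 7 had an unadjusted p under 0.05, beside 1434 of 11611 genes. Tubb4b (-1.04 ± 0.25, adjusted p = 0.0287) and Tubb5 (-0.82 ± 0.22, 0.0589) did not pass. These gradients also held more of their counts in monosomes, 28.4% to 34.03% in LPS+ET+KU against 10.8% to 13.0% in LPS+ET (28.996% in LUL16), and the part of this in the result was not tested.

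Measured against monosomes within LPS+ET, 5 members were called, Tubb4b (log2 1.14 ± 0.18), Tubg1 (1.13 ± 0.13), Tubb6 (1.06 ± 0.17) and Tuba1c (0.86 ± 0.14) heavier and Tubb5 (-1.13 ± 0.16) lighter than the average gene (background 47.5%). Within LPS+ET+KU, Tubg1 was called heavier (0.85 ± 0.13), and Tuba1c (-0.45 ± 0.14), Tuba1b (-1.02 ± 0.20), Tuba4a (-1.35 ± 0.14) and Tubb5 (-1.95 ± 0.16) lighter (background 52.6%). The calls of Tuba1c (adjusted p = 0.0451) and Tuba1b (0.0170) were lost without LPS+ET+KU of LUL16. Tuba1c thus had values above 0 in LPS and LPS+ET and below 0 in LPS+ET+KU, and Tubg1 values above 0 in each. When the gradient term was dropped, the calls of Tubg1 (adjusted p = 0.0117) and Tubb5 (0.163) were lost in LPS+ET, those of Tubg1 (0.0375), Tuba1c (0.0640) and Tuba1b (0.396) in LPS+ET+KU, and those of Tuba1a (0.0186) and Tuba1c (0.0178) in LPS. That of Tuba1c in LPS+ET+KU was also lost without the low-count filter (0.0633).

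**Figure D4:**
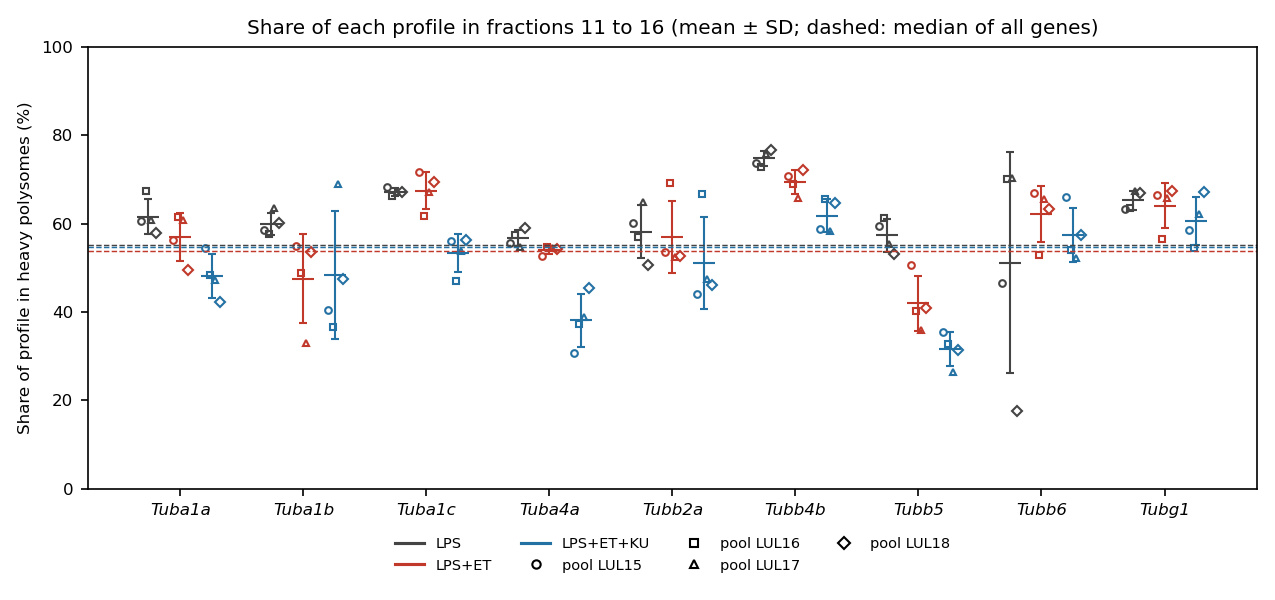
Heavy polysome share of each tubulin gene, in percent of its scaled counts in fractions 11 to 16, with 1 point per gradient, bars of the mean and 1 SD and, for each treatment, the median of all genes as a dashed line. Tubb5 lies at 53.2% to 61.4% in LPS and 26.4% to 35.6% in LPS+ET+KU, and Tuba4a and Tuba1c are lower in LPS+ET+KU than in LPS+ET.

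Other tests of the profile made fewer calls. limma on the heavy polysome share called 0 members in both comparisons, with 1 and 5 at an unadjusted p under 0.05, and 0 in both with the pool block. The backgrounds were 0.313% and 0%, so no gene of 7999 passed in the second. At an unadjusted p under 0.05 there were 1649 and 684 of 7999 genes. Tubb5 was nearest in LPS+ET against LPS (adjusted p = 0.0449), and Tuba4a when the inhibitor was added (0.225). The interaction of treatment and fraction, tested in edgeR over single fractions, also called 0 members in each (backgrounds 1.37% and 1.05%). At an unadjusted p under 0.05 it had 0 and 2 members, beside 1375 of 10360 and 963 of 10472 genes. With a term per gradient it called Tubb5 in the first comparison (adjusted p = 0.0027) and Tuba1c in the second (0.00317), where 5.72% and 3.63% of genes were called.

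The pathway around tubulin was read from lists that named its other genes. Over all genes in the 3 comparisons of ribosome association, 4384, 2031 and 4584 of 12755 had an unadjusted p under 0.05. DESeq2 called 15.6%, 3.15% and 16.4% of genes there. These are the backgrounds for the counts of each list below. Of 11 further tubulin genes, 8 were in the table and 6 were tested, and edgeR called none in ribosome association in any comparison (3, 2 and 4 at an unadjusted p under 0.05, and 0, 0 and 2 by DESeq2). The pool block called Tuba8 higher in LPS+ET against LPS, and Tubb2b, Tubb3 and Tube1 higher in LPS+ET+KU against LPS. The median log2 change was 0.46 in LPS+ET against LPS (0.03 over all genes), 0.51 in LPS+ET+KU against LPS+ET (0.04) and 1.13 in LPS+ET+KU against LPS (0.09). The most abundant were Tubb2b, with 39.9 ± 4.65 CPM in LPS, 55.8 ± 26.5 after etoposide and 90.7 ± 32.8 with KU55933 added, and Tubg2 (7.40 ± 1.55, 11.7 ± 10.9 and 24.3 ± 30.8). Of the 16 genes for tubulin folding and autoregulation 15 were tested, and edgeR called none (2, 2 and 0 at an unadjusted p under 0.05, and 1, 0 and 0 by DESeq2), with medians of -0.02, -0.02 and -0.10 in the 3 comparisons. The prefoldin gene Pfdn5, whose product hands unfolded tubulin to a chaperonin, had 508 ± 49.9 CPM in LPS and 556 ± 138 in LPS+ET. Ttc5, the sensor of nascent tubulin, was low, with 6.79 ± 1.58, 5.88 ± 1.56 and 8.21 ± 2.56 CPM in the 3 treatments, and was not called (log2 -0.33 ± 0.26 and 0.50 ± 0.26 in the first 2 comparisons).

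No gene of the gamma-tubulin ring complex was called by edgeR either (10 of 10 tested, 3, 1 and 2 at an unadjusted p under 0.05, and 0, 0 and 1 by DESeq2), with a median log2 change of 0.16 after etoposide and -0.14 with ATM inhibited. With the pool block, Tbcb of the folding list was called lower and Tubgcp2 of the ring complex higher in LPS+ET against LPS, and Arl2 of the folding list higher with ATM inhibited. Of 13 tubulin modifying enzymes tested, Ttl, the tubulin tyrosine ligase, was called higher in LPS+ET+KU against LPS (log2 1.17 ± 0.25) and none in the other comparisons by edgeR, with 6 and 2 at an unadjusted p under 0.05 and 1 and 0 by DESeq2. Ttl was low, with 1.65 ± 0.308 CPM in LPS and 4.08 ± 1.02 CPM in LPS+ET+KU. The pool block called Ttll5 and Vash1 lower in LPS+ET against LPS. Of 18 genes for microtubule dynamics and binding tested, 1 was called higher and 4 lower in LPS+ET against LPS, against 12.7% of all genes. Those called lower were Tacc3 (509.6 ± 115 to 239 ± 48.1 CPM, log2 -1.21 ± 0.22), Tpx2 (-1.24 ± 0.29), Ckap5 (-1.13 ± 0.25) and Clasp1 (-1.14 ± 0.17), of which Tacc3, Tpx2 and Ckap5 encode spindle proteins and Clasp1 a factor that stabilises plus ends. Mapre3, for an end-binding protein, was higher (1.34 ± 0.24). In LPS+ET+KU against LPS 2 were called higher and 5 lower, against 10.7% of all genes. These were the same 5 genes in the same directions, with Katna1, for a subunit of the severing enzyme katanin, higher (0.72 ± 0.13) and Mapre2, for another end-binding protein, lower (-0.93 ± 0.22).

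None of these 18 was called by edgeR, DESeq2 or the pool block in LPS+ET+KU against LPS+ET, where 1 had an unadjusted p under 0.05. For the change of the heavy-to-monosome ratio, after etoposide and with ATM inhibited, 2829 and 1434 of 11611 genes had an unadjusted p under 0.05. DESeq2 called 8.99% and 1.17% of genes there. In this ratio edgeR called no gene of the 5 lists in either comparison, with 1, 2, 1, 4 and 3 genes at an unadjusted p under 0.05 after etoposide and 2, 2, 0, 0 and 1 with ATM inhibited, lists in the order given, and 2 and 0 in all called by DESeq2. With ATM inhibited, their medians were -0.14 for the other tubulin genes, -0.12 for folding, -0.02 for the ring complex, -0.11 for the modifying enzymes and 0.00 for microtubule dynamics, beside -0.83 for the 9 members.

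Genes of like pattern were sought for the alpha and the beta member with the highest mean level. They were taken by Pearson's r of log2(CPM + 1) over the 36 class sums (3 classes of 12 gradients), among 5360 genes. For Tuba1c they were Ddx39 (r = 0.911), Fubp1 (0.899), Cd36 (0.880), Mtap (0.878) and Cfp (0.867). For Tubb5 they were Gm5944 (0.908), Gm13592 (0.892), AC125407.1 (0.888), RP24-435G18.1 (0.883) and Gpi1 (0.861). The points share gradients, pools and depth, so these values describe likeness across the libraries and carry no test.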

How the data were processed

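The submitters sequenced 3′ end libraries of single sucrose gradient fractions. Per the study's methods, the authors made them from equal RNA concentrations per fraction, removed PCR duplicates by random barcode bases, trimmed A tracts, aligned to GRCm38 and summed tags at poly(A) sites per Ensembl gene. Their processing notes name TopHat2 2.0.12, TopHat, HTSeq and DESeq2 1.6.3. The deposited values are raw counts, without normalization, and were taken as such. Of 157 columns, 79 matched 1 labelled sample and 78 their treatment and fraction only, so gradients are named by pool. The fraction 17 library (777 counts) was not used.

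Counts were summed per gradient, or per gradient and class, and tested over all genes in all 12 gradients with edgeR 4.0.16 (TMM, default filter, quasi-likelihood F-test, two-sided), called at the study's Benjamini-Hochberg adjusted p under 0.01. Heavy against monosome contrasts used 36 class sums with a term per gradient. Heavy shares (mean of at least 100 counts per gradient, 0.5 added before the logit) were tested with limma 3.58.1. The study describes its gradients as biological replicates. Alternatives included DESeq2 1.42.0, RLE scaling, no filter, leaving out gradients, and a pool block; those without pools LUL16 and LUL17 were chosen after seeing the data. Members and lists were chosen with earlier results of these data known. Named genes were the members and, of each list, those called, Ttc5 or the 2 most abundant. R 4.3.3, Python 3.11.15, numpy 2.4.6, pandas 2.3.3, scipy 1.17.1 and matplotlib 3.10.9 were used, and the tests were tried on simulated counts.

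Pools paired the gradients: deviations from treatment means had a Pearson's r of 0.353 to 0.894 in the 12 same-pool pairs, all above 0.1, and of -0.672 to 0.403 in 36 pairs of different pools, 8 above 0.1 (8000 genes, not independent replicates). The pairing comes from column names; no source ties a pool to an animal or day.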

Additional observations from a re-analysis of the deposited data

Results flagged for a closer look

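Among 54 sets of 4 gradients (level and heavy polysome share of 9 genes in 3 treatments), 3 held 1 gradient far from the others, all of them in heavy polysome share and in pool LUL16. Chance alone gives about 1 in 20 sets. Tubb2a had a heavy share of 69.2% in LPS+ET of LUL16, against 52.6% to 53.6% in the other 3 gradients, and 66.7% in LPS+ET+KU of LUL16, against 44.2% to 47.5%. Tubg1 had 56.6% in LPS+ET of LUL16, against 65.9% to 67.4%. The LPS+ET gradient of LUL16 also held 30.4% of its counts in heavy polysomes, and the part of this in these values was not tested.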

How the results depend on the processing

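No member reversed direction in a comparison where it was called. The pool as a replicate block moved the number of members called in ribosome association to 5 (LPS+ET against LPS), 4 (LPS+ET+KU against LPS+ET) and 6 (LPS+ET+KU against LPS), in monosomes to 4 and 2, in heavy polysomes of LPS+ET against LPS to 3 and in light polysomes of LPS+ET+KU against LPS+ET to 2, and with a term per gradient the interaction called 1 and 1. The block changed the count by 1.5 times or less elsewhere. The median log2 change of all genes in LPS+ET+KU against LPS was 0.09, and 0.22 in DESeq2 and 0.23 without the low-count filter. Without the gradient term, 2 (LPS), 3 (LPS+ET) and 2 (LPS+ET+KU) members were called for heavy polysomes against monosomes, and 0 and 0 for the change of that ratio. Over all genes, that fit called 3679, 3780 and 3745 of 11034 for heavy polysomes against monosomes. For the change of the ratio it called 19 and 0 of 11034. At an adjusted p under 0.05 the counts were 4 and 5 for LPS+ET and LPS+ET+KU against LPS in ribosome association, 2 in heavy polysomes of LPS+ET, 8 for heavy against monosomes in LPS+ET+KU and 1 for heavy share in LPS+ET against LPS. Over all genes at that level, 2875 and 2903 of 12755 were called in ribosome association and 2131 of 11368 in heavy polysomes of LPS+ET. For heavy against monosomes in LPS+ET+KU it was 7398 of 11611, and for heavy share 256 of 7999. Without the low-count filter 1 member was called in LPS+ET against LPS, as without pool LUL16 or LUL17. Over all genes these 3 fits called 1510 of 19600, 2095 of 12854 and 884 of 12713. In LPS+ET+KU against LPS+ET 0 were called in the fit of 8 gradients, with equal weight per fraction (limma) and without pool LUL17. edgeR called no gene at all in the fit of 8 gradients or without pool LUL17, and limma 18 of 12755. In these fits 3, 4 and 3 members had an unadjusted p under 0.05, beside 1603 of 12357, 1658 of 12755 and 1482 of 12713 genes. DESeq2 called 3 members (background 3.15%). Leaving out 1 gradient gave 1 to 2, 0 to 3 and 2 to 3 members in ribosome association, 1 to 2 in light polysomes of LPS+ET, 0 to 3 in heavy polysomes of LPS+ET+KU against LPS+ET, 2 to 4, 5 to 5 and 4 to 6 for heavy against monosomes and 1 to 2 for the change of the ratio with KU55933. The cause of these moves was not tested. For single members, 32 values were called and 112 were not; of their 579 alternative values 480 kept the call and 99 lost it, and of the 2013 alternatives to values not called 44 gained one. Tubb6 in LPS held 50 to 137 counts per gradient, which limits its profile there.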
